A study of Danio rerio with 12 samples.

Results

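The genes described here encode the subunits of the mitochondrial respiratory chain and of the ATP synthase, chosen by gene name as NADH dehydrogenase (NDUF), succinate dehydrogenase (SDH), cytochrome bc1 (CYC1, UQCR), cytochrome c oxidase (COX), ATP synthase (ATP5) and mitochondrially encoded (MT) subunits. The rule found 112 of the 32520 gene IDs in the table of counts. Of these, 108 are subunits, 95 encoded in the nucleus and 13 in mitochondrial DNA (mtDNA), and 4 are assembly factors of succinate dehydrogenase (sdhaf1, SDHAF2, SDHAF3 and SDHAF4) whose names match the rule. By complex there were 38 nuclear and 7 mtDNA subunits of complex I, 5 nuclear ones of complex II, 9 nuclear and 1 mtDNA ones of complex III, 25 nuclear and 3 mtDNA ones of complex IV, and 18 nuclear and 2 mtDNA ones of the ATP synthase (complex V). RNA came from whole zebrafish embryos in 4 groups of 3 libraries: mon at 30 hours post fertilization (hpf), wild-type/het at 30 hpf, mon at 22 hpf and wild-type/het at 22 hpf. In moonshine mutants (mon) the gene trim33 is defective, which encodes TIF1γ, a cofactor of transcription needed to make red blood cells; the allele is not stated. The wild-type/het embryos came from the same clutches, and their pools may hold heterozygous carriers. Both kinds of embryo inherited a single allele of the drl:eGFP reporter, and mon embryos were picked by their weak green fluorescence, so genotype was assigned by phenotype. Each library pooled 30 embryos of 1 clutch from 1 mating. At 30 hpf the 3 clutches were numbered 3, 4 and 9, and at 22 hpf they were 9, 11 and 13, each yielding a mon and a wild-type/het library.

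Complexes I to IV carry electrons from NADH and succinate to oxygen and, except for complex II, pump protons across the inner mitochondrial membrane, and the ATP synthase uses that gradient to make ATP. Most subunits are made from nuclear genes and imported, while a small set at the core of complexes I, III, IV and V is transcribed inside the mitochondrion from mtDNA, so assembly draws on both genomes. In the vertebrate embryo, contracting muscle and the heart are rich in mitochondria, and red cell precursors need mitochondria to make heme.

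Each library held between 18233320 and 23135676 gene counts. The transcript of the mutated gene TRIM33 (ENSDARG00000016181) stood at 72.7, 72.8 and 71.6 CPM (read counts scaled to a common library size) in mon and at 75.4, 76.2 and 77.9 CPM in wild-type/het at 30 hpf. At 22 hpf it stood at 50.7, 57.6 and 67.6 CPM in mon and at 85.6, 84.1 and 89.3 CPM in wild-type/het. Its mon level was thus below every wild-type/het level at both stages, but the difference passed the adjusted threshold only at 22 hpf. The log2 fold change was -0.56 (SE 0.08) at 22 hpf, with an adjusted p = 0.00129 by edgeR's quasi-likelihood test. At 30 hpf it was -0.08 (SE 0.08), where 12.3% of all genes tested did not overlap between the genotypes. All 8 erythroid marker genes measured were lower in mon at each stage by edgeR's quasi-likelihood test, and their summed level lay between 12.2 and 15.0 CPM in mon and between 1466 and 1620 CPM in wild-type/het at 30 hpf, and between 9.62 and 11.4 CPM in mon and between 304 and 342 CPM in wild-type/het at 22 hpf. Markers of skeletal muscle, heart, neurons, neural progenitors, endothelium, epidermis and the yolk syncytial layer were all detected.

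Of the 112 genes, 104 passed the filter on low counts, among them 87 nuclear subunits, all 13 mtDNA subunits and the 4 assembly factors. The 8 that did not pass held between 10 and 90 counts over all 12 libraries. They were ndufa9b, NDUFB4, NDUFS1, UQCRB, cox8b, ndufa4l2b, and copies of SDHD (ENSDARG00000055712) and COX5B (ENSDARG00000068738). For SDHD and COX5B, and likewise for ndufa9b, cox8b and ndufa4l2b, another copy passed with ample counts. For NDUFB4, NDUFS1 and UQCRB the rule found no other copy, and gene IDs without a symbol could not be matched by it. Levels below are CPM, listed by rising clutch number within a group, and log2 fold changes are given with the SE of the fit. A gene was called at a Benjamini-Hochberg adjusted p under 0.05 over all 21778 genes tested.

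The shares of the RNA taken by the mtDNA and by the nuclear subunits differed between mon and wild-type/het embryos by less than the spread between libraries, and both shares were larger at 30 than at 22 hpf. The 13 mtDNA subunits together made up 1.46, 1.52 and 1.33% of the gene counts in mon and 1.43, 1.46 and 1.34% in wild-type/het at 30 hpf. At 22 hpf they made up 1.14, 1.14 and 1.23% in mon and 1.22, 1.096 and 1.17% in wild-type/het. The genotypes overlapped at each stage, and every library of 30 hpf lay above every library of 22 hpf. The 95 nuclear subunits together held 0.586, 0.594 and 0.592% in mon and 0.576, 0.598 and 0.571% in wild-type/het at 30 hpf, against 0.507, 0.496 and 0.481% in mon and 0.506, 0.496 and 0.487% in wild-type/het at 22 hpf. Here too the genotypes overlapped and the stages did not. The mtDNA sum was 2.21 to 2.56 times the nuclear sum over the 12 libraries, in reads and with no account of gene length. That ratio was 2.49, 2.56 and 2.26 in mon and 2.48, 2.44 and 2.35 in wild-type/het at 30 hpf, and 2.25, 2.30 and 2.55 in mon and 2.40, 2.21 and 2.40 in wild-type/het at 22 hpf, so it overlapped between all 4 groups.

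**Figure D1:**
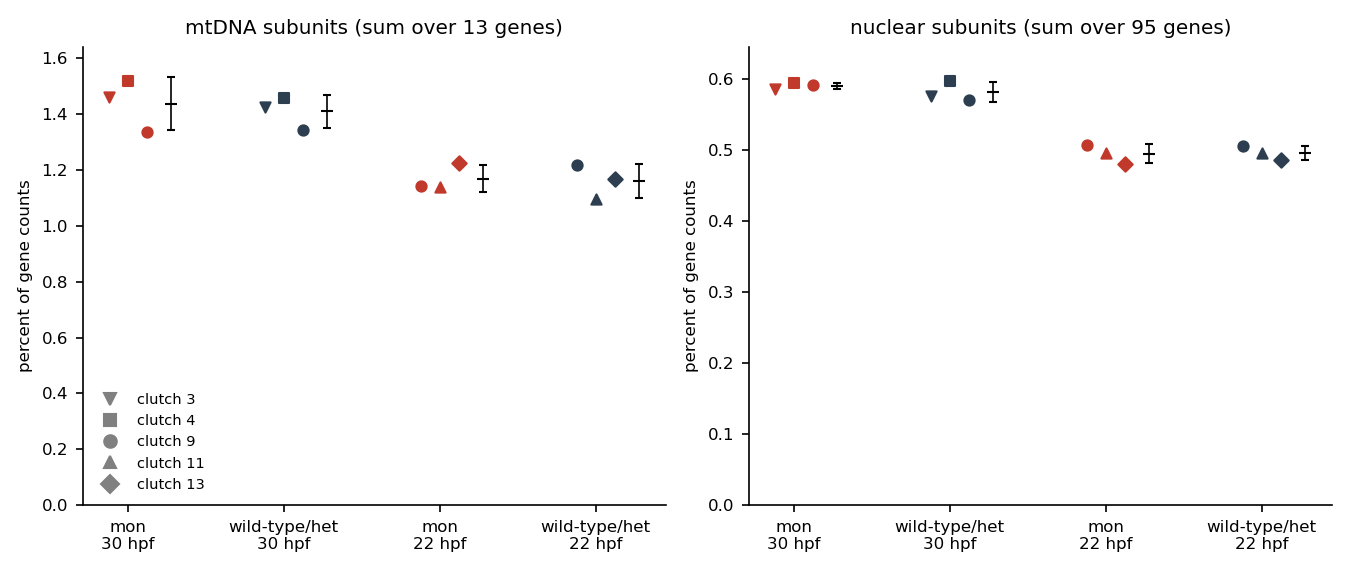
Summed share of gene counts (percent, y axis from 0) of the 13 mtDNA subunits (left) and the 95 nuclear subunits (right) in each library, by group; symbols mark the clutch and the bars beside them the mean ± SD of 3 libraries. The mtDNA sums lie between 1.33 and 1.52% at 30 hpf and between 1.096 and 1.23% at 22 hpf, with mon and wild-type/het overlapping at each stage.

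The comparison of mon with wild-type/het at 22 hpf asked whether transcripts of the oxidative machinery differ between the genotypes at the earlier stage. No subunit gene was called in the fits that leave the pairing by clutch unused. Of the 104, edgeR called 0, beside 0.445% of all genes tested, and DESeq2 and limma-voom also called 0. With the clutch as a block edgeR called 1 (MT-ATP6, described below), beside 1.48% of all genes. At an unadjusted p under 0.05 edgeR had 3 of the 104, against 4.29% of all genes, and with the clutch as a block it had 9, against 8.59%. The median log2 fold change of the 104 was 0.01, against 0.00 over all genes tested, with 60 values above and 44 below zero. The 95% interval of the fold change lay wholly within 1.5-fold in either direction for 90 of the 104 genes (86.5%), among them all 13 mtDNA subunits and 76 of the 87 nuclear ones. Over all genes tested that share was 54.4%. The width of an interval depends on the counts of a gene, and weakly expressed copies such as cox4i1l (SE 0.84) had wide ones. The 2 shares therefore do not compare the size of the mon effect alone. In RNA of whole embryos fewer cells of a type and less RNA per cell cannot be told apart, and levels within blood cells were not measured separately.

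The 3 genes with an unadjusted p under 0.05 at 22 hpf were ndufa4b, SDHAF3 and mt-atp8. NDUFA4 proteins, named after complex I, are subunits of complex IV in mammals. The zebrafish copy ndufa4b (ENSDARG00000056108) stood at 1.98, 0.907 and 1.02 CPM in mon and at 2.03, 3.43 and 1.69 CPM in wild-type/het, which overlap, with mon below wild-type/het in each of the 3 clutches (log2 -0.87 ± 0.32, edgeR adjusted p = 0.754, or 0.0913 under the clutch block). SDHAF3 (ENSDARG00000036092), which helps to mature the iron-sulfur subunit of complex II, stood at 2.42, 2.09 and 2.15 CPM in mon and at 3.15, 3.53 and 3.08 CPM in wild-type/het (log2 -0.55 ± 0.20, edgeR adjusted p = 0.765). Its mon libraries all lay below the wild-type/het ones, on fewer counts than most members. The genotypes did not overlap for 8.45% of all genes tested at this stage. The mtDNA gene mt-atp8, a small membrane subunit of the ATP synthase, stood at 50.8, 53.2 and 54.8 CPM in mon and at 49.9, 43.0 and 47.2 CPM in wild-type/het (log2 0.18 ± 0.08, edgeR adjusted p = 1.0). Next by p came COX7A2L (ENSDARG00000054907), a supercomplex factor in mammals, and the complex I accessory subunit NDUFA12 (ENSDARG00000042469), with log2 fold changes of 0.15 ± 0.07 and 0.22 ± 0.11 and edgeR adjusted p = 1.0 for both.

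With the clutch as a block, which uses that the libraries of 1 clutch are pairs, edgeR called 1 member at 22 hpf, beside 1.48% of all genes. This was MT-ATP6, the proton channel subunit of the ATP synthase, at 649, 658 and 664 CPM in mon and at 617, 608 and 601 CPM in wild-type/het. The mon libraries all lay above the wild-type/het ones, a lack of overlap seen at 22 hpf in 8.45% of all genes tested. Its log2 fold change was 0.11 in both fits, with an edgeR adjusted p = 0.0279 under the block and 1.0 without it. MT-ATP6 and mt-atp8 overlap on mtDNA in vertebrates, so reads in the overlap may be shared or lost in the counting. Clutch by clutch, the median difference of the 13 mtDNA subunits (log2 of CPM plus 0.5, mon minus wild-type/het) at 22 hpf was -0.10 in clutch 9, 0.09 in clutch 11 and 0.13 in clutch 13. All 13 were higher in mon in clutch 13, and 3 of 13 in clutch 9, so the clutches differed in direction. For the 87 nuclear subunits that median was 0.02 in each of the 3 clutches. At 22 hpf the genotypes did not overlap for 3 of the 13 mtDNA subunits (23.1%), all higher in mon. The share was 2.3% of the nuclear subunits and 8.45% of all genes. At 30 hpf these shares were 7.69%, 9.2% and 12.3%. MT-ND1 was not called under the block, at log2 0.10 at 22 hpf and 0.08 at 30 hpf (edgeR adjusted p = 0.127 and 0.222).

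At 30 hpf no subunit gene was called either in the fits that leave the pairing by clutch unused. edgeR called 0 of the 104, beside 0.79% of all genes tested, and DESeq2 and limma-voom called 0. With the clutch as a block edgeR called 1 (ATP5PB, described below), beside 3.09% of all genes. At an unadjusted p under 0.05 edgeR had 0 of the 104, against 5.56% of all genes, and with the clutch as a block it had 5, against 12.3%. The median log2 fold change was 0.02, against 0.00 over all genes tested, with 66 values above and 38 below zero. Intervals lay within 1.5-fold for 91 of the 104 genes (87.5%), against 54.9% of all genes tested, shares that again depend on counts. The 7 mtDNA subunits of complex I had positive log2 values at this stage, from 0.01 for MT-ND6 to 0.13 for MT-ND3, each with an edgeR adjusted p = 1.0. Their summed share of gene counts overlapped between the genotypes, at 0.403, 0.454 and 0.391% in mon and 0.396, 0.413 and 0.383% in wild-type/het. The sign for MT-ND6 turned without any 1 of 3 libraries, namely mon of clutch 4 (-0.03) and wild-type/het of clutch 4 (-0.00) or 9 (-0.01) of 30 hpf. Of the other mtDNA subunits, MT-CO1, MT-CO2 and MT-CO3 had values of 0.02, 0.04 and 0.01. MT-CYB, MT-ATP6 and mt-atp8 had values of -0.00, -0.04 and -0.08. Clutch by clutch, the median difference of the 13 was 0.03 in clutch 3, 0.09 in clutch 4 and -0.00 in clutch 9. In the same order 9, 9 and 6 of the 13 were higher in mon.

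The smallest p at 30 hpf belonged to low or slightly shifted genes. A weakly expressed copy of COX6A1 (ENSDARG00000054588), a complex IV accessory subunit, stood at 0.541, 0.819 and 0.354 CPM in mon and at 1.07, 1.25 and 0.755 CPM in wild-type/het (log2 -0.84 ± 0.43, edgeR adjusted p = 0.954). The 2 groups overlapped, and these levels rest on few counts. ATP5PB (ENSDARG00000011553), which encodes a subunit of the peripheral stalk of the ATP synthase, stood at 175, 176 and 183 CPM in mon and at 154, 161 and 154 CPM in wild-type/het. The mon libraries were all higher, a lack of overlap seen at 30 hpf in 12.3% of all genes tested. The log2 value was 0.19 ± 0.10 (edgeR adjusted p = 0.954). With the clutch as a block, ATP5PB was the 1 member called at 30 hpf, beside 3.09% of all genes (edgeR adjusted p = 0.00242), and its block value at 22 hpf was not called. Of the 5 members whose symbols lie on the chromosome of trim33 in the RefSeq gene order, ATP5PB is 466 placed genes away from it. COX6A1 and cox6a1 share a symbol apart from case and so were given 1 place (1336 placed genes), which need not be that of each copy. The nearest, the complex I accessory subunit NDUFB11 at 87 placed genes, had a log2 value of 0.06 ± 0.23 at 30 hpf and 0.07 ± 0.24 at 22 hpf (edgeR adjusted p = 1.0 at both). NDUFB7 (ENSDARG00000033789) and ATP5PO (ENSDARG00000001788), subunits of complex I and of the peripheral stalk, had log2 values of 0.26 ± 0.14 and 0.12 ± 0.07, with edgeR adjusted p of 0.972 and 0.993.

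**Figure D2:**
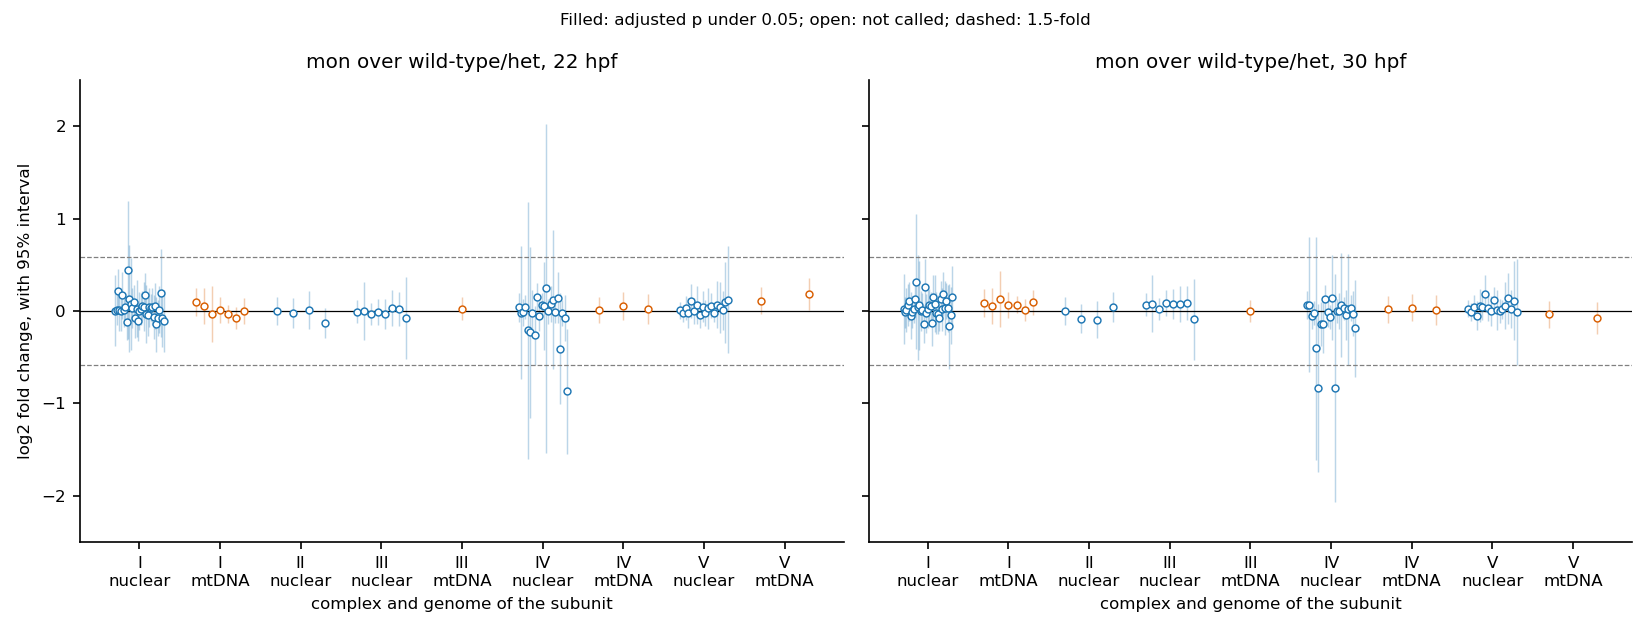
Log2 fold change of mon over wild-type/het (points) with its 95% interval (lines) for 100 subunit genes, by complex and genome, at 22 hpf (left) and 30 hpf (right); dashed lines mark 1.5-fold and open points are not called. All points are open, and the widest intervals belong to weakly expressed copies of complex IV subunits.

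The mon effect itself was not found to differ between the stages. edgeR called 0 of the 104 for that difference, beside 0.0872% of all genes, and DESeq2 and limma-voom called 0. At an unadjusted p under 0.05 edgeR had 1 of the 104, against 3.21% of all genes. The clutch block also called 0, beside 0.482% of all genes, with 4 of the 104 at an unadjusted p under 0.05, against 7.72%. The 1 gene without the block was mt-atp8, with a log2 fold change of -0.08 ± 0.08 at 30 hpf and 0.18 ± 0.08 at 22 hpf. The log2 difference of these was -0.26 ± 0.11 (edgeR adjusted p = 1.0). The interval of the difference lay within 1.5-fold for 82 of the 104 genes. That count is given without the share of all genes, so it does not set these genes apart.

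The comparison of 30 with 22 hpf asked how the same transcripts change with stage in each genotype. In mon embryos edgeR called 55 of the 104 genes higher at 30 hpf and 1 lower, beside 22.1% of all genes called higher and 20.2% lower. In wild-type/het embryos it called 56 higher and 2 lower, beside 22.4% and 20.7%. The median log2 fold change of the 104 was 0.30 in mon and 0.30 in wild-type/het, against -0.01 and -0.02 over all genes tested. Both calls of higher level were shared by 50 genes, which is 90.9% of those of mon and 89.3% of those of wild-type/het. Across the 104 genes the log2 fold changes of the 2 genotypes correlated at r = 0.91, a description over genes whose libraries came from the same clutches. Neither the shared calls nor r was computed over all genes, so neither sets these genes apart. Over all genes tested, 0.0872% were called for a difference between the genotypes in the stage effect. The difference between the genotypes in the stage effect is the comparison given before, in which 0 genes were called. In mon the stages did not overlap for 60.9% of the nuclear and 84.6% of the mtDNA subunits, against 51.1% of all genes tested. In wild-type/het these shares were 62.1% and 76.9%, against 52.7%. Lack of overlap in a single gene was thus common. These stage comparisons also set different clutches against each other, since clutch 9 alone was sampled at both stages. Stage values under the clutch block, given below for single genes, therefore rest on clutch 9. Within clutch 9 the median log2 difference between 30 and 22 hpf was 0.24 in mon and 0.19 in wild-type/het for the nuclear subunits, and 0.32 in mon and 0.23 in wild-type/het for the mtDNA subunits.

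**Figure D3:**
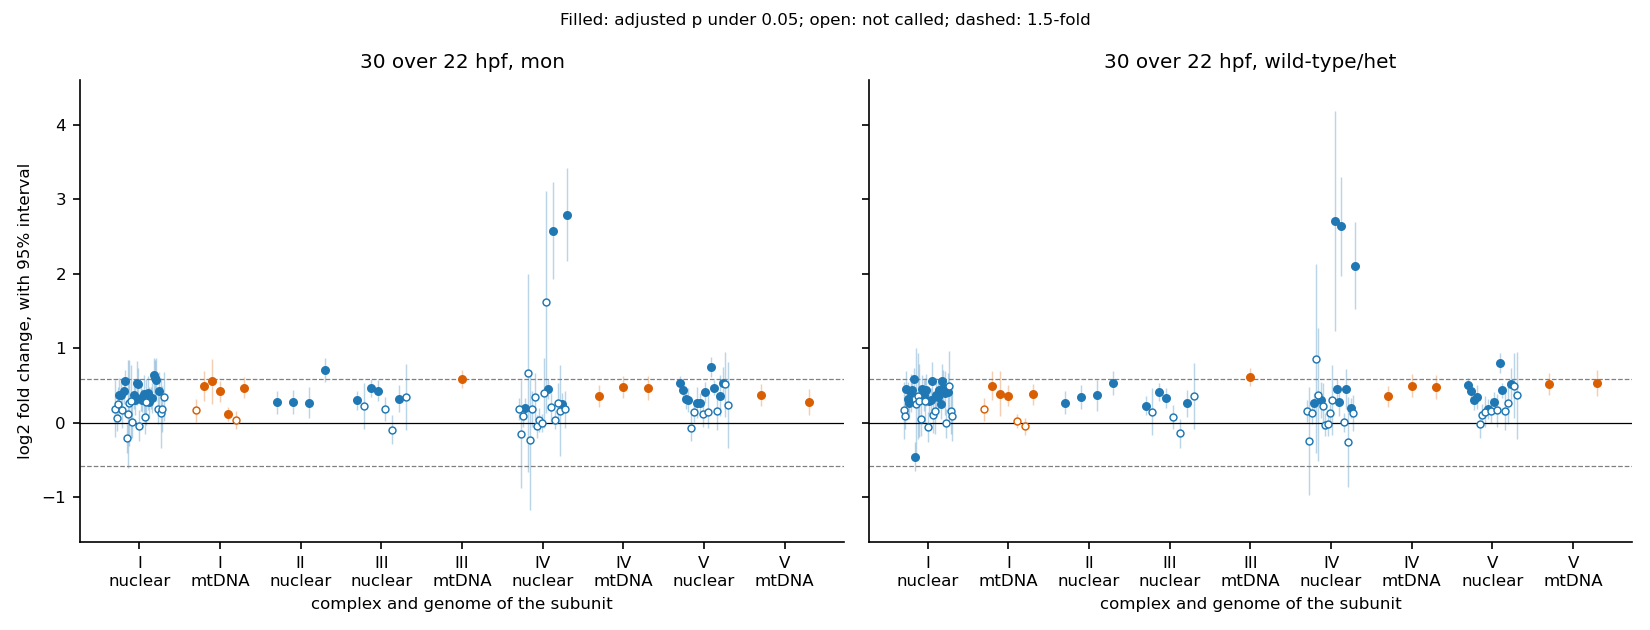
Log2 fold change of 30 over 22 hpf (points) with its 95% interval (lines) for 100 subunit genes, by complex and genome, in mon (left) and wild-type/het (right); filled points have an adjusted p under 0.05 and dashed lines mark 1.5-fold. Most points lie above zero, and the points over 2 are complex IV copies.

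Marker genes of some other tissues changed over the same hours, in differing directions, and their part in the stage values of the subunits was not tested. The summed level of 6 skeletal muscle markers was 11092 to 12115 CPM in mon and 11648 to 12174 CPM in wild-type/het at 30 hpf, and 1570 to 1932 CPM in mon and 1630 to 1965 CPM in wild-type/het at 22 hpf. In wild-type/het 5 of the 6 were called higher at 30 hpf and 1 lower, and the counts were the same in mon. The 3 heart and 3 neuron markers were called higher in both genotypes. Neuron markers summed to 456 to 484 CPM in mon and 500.2 to 549 CPM in wild-type/het at 30 hpf, against 219.9 to 253 CPM in mon and 229 to 233 CPM in wild-type/het at 22 hpf, and heart markers to 33.5 to 35.3 CPM, 33.0 to 39.1 CPM, 13.6 to 18.01 CPM and 17.8 to 18.5 CPM in the same order of groups. Erythroid markers were called higher at 30 hpf for 7 of 8 in wild-type/het and for 1 of 8 in mon, where 1 was lower. In each genotype, 2 of 4 epidermis markers were called higher and 2 lower, and 1 of 4 neural progenitor markers higher and 1 lower. Of 4 yolk syncytial layer markers 2 were called higher in each genotype, and of 3 endothelium markers 3 in mon and 2 in wild-type/het.

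Complex I, the entry point for NADH, held 35 nuclear genes that were tested. Of them 19 in mon (54.3%) and 20 in wild-type/het (57.1%) were called higher at 30 hpf, against 22.1% and 22.4% of all genes. All 6 tested nuclear genes of its core in the matrix arm, the part that binds flavin and iron-sulfur clusters, were called higher in both genotypes. Their median log2 fold change was 0.33 in each. Among the accessory subunits NDUFA9 (ENSDARG00000070723) stood at 60.0, 59.5 and 62.2 CPM in mon and at 58.1, 60.4 and 61.1 CPM in wild-type/het at 30 hpf. At 22 hpf it stood at 41.0, 39.8 and 42.4 CPM in mon and at 36.7, 40.8 and 42.1 CPM in wild-type/het. The stages did not overlap in either genotype (log2 0.56 ± 0.07 in mon and 0.59 ± 0.07 in wild-type/het, edgeR adjusted p = 4.41e-06 and 2.46e-06). The accessory subunit ndufa11 rose by 0.64 ± 0.11 in mon and 0.55 ± 0.11 in wild-type/het on the log2 scale (edgeR adjusted p = 0.000192 and 0.000654). NDUFS4, another accessory subunit, had log2 values of 0.38 ± 0.12 in mon and 0.56 ± 0.12 in wild-type/het (edgeR adjusted p = 0.0182 and 0.00135). Its call in mon was lost without any 1 of 3 mon libraries, with an edgeR adjusted p = 0.0582 without clutch 13 of 22 hpf, 0.0632 without clutch 4 and 0.0639 without clutch 9 of 30 hpf.

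All 4 tested genes of complex II, the only complex without an mtDNA subunit, were called higher at 30 hpf in both genotypes, against 22.1% of all genes in mon and 22.4% in wild-type/het. The membrane anchor SDHD (ENSDARG00000030139) stood at 45.1, 46.8 and 49.7 CPM in mon and at 47.3, 46.8 and 43.5 CPM in wild-type/het at 30 hpf, against 28.5, 30.2 and 28.2 CPM in mon and 31.9, 29.8 and 33.7 CPM in wild-type/het at 22 hpf. Its log2 fold change was 0.70 ± 0.08 in mon and 0.53 ± 0.08 in wild-type/het (edgeR adjusted p = 1.23e-06 and 2.68e-05). SDHA, the flavin subunit that oxidises succinate, rose by 0.27 ± 0.07 in each genotype on the log2 scale (edgeR adjusted p = 0.00549 in mon and 0.00566 in wild-type/het). On library totals without scaling the wild-type/het value was not called (0.18, edgeR adjusted p = 0.0556). Of the 4 assembly factors, 1 was called higher and 1 lower in mon, and 1 lower in wild-type/het. SDHAF2, which attaches the flavin to SDHA, fell by 0.41 ± 0.15 in mon and by 0.44 ± 0.15 in wild-type/het on the log2 scale (edgeR adjusted p = 0.034 and 0.0242). In mon it stood at 12.4, 11.6 and 11.0 CPM at 30 hpf, against 18.1, 15.0 and 13.2 CPM at 22 hpf, and in wild-type/het at 11.6, 10.8 and 8.81 CPM at 30 hpf, against 14.8, 11.9 and 15.7 CPM at 22 hpf. The stages did not overlap, as for 51.1% of all genes in mon and 52.7% in wild-type/het, and the calls were fragile. Without clutch 9 the log2 value was -0.21 in mon and -0.27 in wild-type/het (edgeR adjusted p = 0.38 and 0.24). In mon the call was lost without clutch 9 of 22 hpf (log2 -0.26, edgeR adjusted p = 0.205) or clutch 11 of 22 hpf (0.0592) and without clutch 4 or 9 of 30 hpf (0.0768 and 0.11), and in wild-type/het it was lost without clutch 9 or 13 of 22 hpf (0.0677 and 0.0984) and without clutch 9 of 30 hpf (0.117). SDHAF3 had the opposite sign, with log2 values of 0.94 ± 0.20 in mon and 0.48 ± 0.19 in wild-type/het (edgeR adjusted p = 0.00108 and 0.0548), the wild-type/het value not past the threshold. Without wild-type/het of clutch 4 of 30 hpf it passed (0.59, edgeR adjusted p = 0.0393).

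Of the 8 tested nuclear genes of complex III, 4 were called higher in each genotype, against 22.1% of all genes in mon and 22.4% in wild-type/het. UQCRC2 (ENSDARG00000071691), a core protein of the matrix side, stood at 112, 109 and 111 CPM in mon and at 104, 110 and 99.9 CPM in wild-type/het at 30 hpf, against 88.1, 83.0 and 75.7 CPM in mon and 84.5, 86.1 and 78.8 CPM in wild-type/het at 22 hpf. The stages did not overlap (log2 0.43 ± 0.07 in mon and 0.33 ± 0.07 in wild-type/het, edgeR adjusted p = 5.0e-05 and 0.000575). A second copy, uqcrc2a, had log2 values of 0.35 ± 0.20 in mon and 0.36 ± 0.20 in wild-type/het (edgeR adjusted p = 0.193 and 0.172). Under the clutch block its log2 value was smaller, 0.19 in each genotype, and was called (edgeR adjusted p = 0.0384 in mon and 0.0326 in wild-type/het). It was also called in wild-type/het without mon of clutch 13 of 22 hpf (edgeR adjusted p = 0.0312).

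The ATP synthase had 11 of its 18 nuclear genes called higher in mon and 9 in wild-type/het, against 22.1% and 22.4% of all genes. Of the 5 genes of the F1 head, where ATP is made, 4 were called in each genotype. ATP5F1A (ENSDARG00000010149), the alpha subunit of the head, stood at 792, 801 and 785 CPM in mon and at 777, 816 and 747 CPM in wild-type/het at 30 hpf. At 22 hpf it stood at 558, 530 and 560 CPM in mon and at 560, 536 and 547 CPM in wild-type/het. The stages were far apart next to the spread of the libraries (log2 0.53 ± 0.04 in mon and 0.51 ± 0.04 in wild-type/het, edgeR adjusted p = 2.78e-08 and 4.05e-08). Its partner ATP5F1B, the catalytic beta subunit, named here after its values were seen, rose by 0.43 ± 0.04 in mon and 0.42 ± 0.04 in wild-type/het on the log2 scale (edgeR adjusted p = 4.92e-07 and 6.06e-07).

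Among the mtDNA transcripts, 11 of 13 were called higher at 30 hpf in mon and 10 of 13 in wild-type/het, against 22.1% and 22.4% of all genes, with log2 fold changes of the 13 from 0.03 to 0.59 in mon and from -0.05 to 0.61 in wild-type/het. MT-CYB, the cytochrome b of complex III, stood at 1324, 1320 and 1202 CPM in mon and at 1317, 1322 and 1208 CPM in wild-type/het at 30 hpf, against 814, 835 and 908 CPM in mon and 880, 775 and 861 CPM in wild-type/het at 22 hpf. Its log2 fold change was 0.59 ± 0.06 in mon and 0.61 ± 0.06 in wild-type/het (edgeR adjusted p = 4.14e-07 and 2.31e-07), the highest of the 13 in both. The 3 mtDNA subunits of complex IV, its core, had smaller values. MT-CO1, the oxygen-reducing subunit, stood at 5230, 4994 and 4515 CPM in mon and at 5068, 4867 and 4637 CPM in wild-type/het at 30 hpf, against 3833, 3599 and 4075 CPM in mon and 4062, 3496 and 3878 CPM in wild-type/het at 22 hpf. Its stages did not overlap (log2 0.36 ± 0.07 in mon and 0.35 ± 0.07 in wild-type/het). MT-CO2 and MT-CO3 had log2 values of 0.48 and 0.46 in mon and of 0.50 and 0.48 in wild-type/het.

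The mtDNA genes next to MT-CYB, MT-ND6 and MT-ND5, had the smallest values of the 13. MT-ND5, a proton-pumping subunit of complex I, stood at 1435, 1528 and 1425 CPM in mon and at 1391, 1378 and 1419 CPM in wild-type/het at 30 hpf, and at 1317, 1315 and 1415 CPM in mon and 1451, 1383 and 1309 CPM in wild-type/het at 22 hpf. In mon the log2 fold change of 0.12 ± 0.04 was called (edgeR adjusted p = 0.0439), and in wild-type/het the value of 0.02 ± 0.04 was not (edgeR adjusted p = 0.808). The call in mon was lost without any 1 of 8 libraries, among them mon of clutch 11 of 22 hpf (edgeR adjusted p = 0.146) and mon of clutch 4 of 30 hpf (0.188). The others were mon of clutch 9 of 22 hpf (0.0906), mon of clutch 3 of 30 hpf (0.0552), wild-type/het of clutch 11 of 22 hpf (0.0565), and wild-type/het of clutches 3, 4 and 9 of 30 hpf (0.0532, 0.0534 and 0.0536), and it was lost under the clutch block (0.188) and on library totals (0.453). MT-ND6, the one subunit that vertebrates transcribe from the opposite mtDNA strand, had log2 values of 0.03 ± 0.05 in mon and -0.05 ± 0.05 in wild-type/het (edgeR adjusted p = 0.667 and 0.471). On library totals these were -0.04 in mon and -0.14 in wild-type/het, the second called lower (edgeR adjusted p = 0.0413), and MT-ND5 in wild-type/het was -0.07; under the clutch block MT-ND6 in mon was -0.03 and MT-ND5 in wild-type/het -0.01. The strand setting of the counting is not given, so reads of MT-ND6 and of RNA antisense to it cannot be told apart.

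The other complex I genes of mtDNA lay between these. MT-ND2 had log2 values of 0.49 ± 0.09 in mon and 0.50 ± 0.09 in wild-type/het, MT-ND4 of 0.42 ± 0.07 and 0.36 ± 0.07, and mt-nd4l of 0.47 ± 0.07 and 0.38 ± 0.07, all called in both genotypes by edgeR. MT-ND1 was not called, at 0.16 ± 0.07 in mon and 0.18 ± 0.07 in wild-type/het (edgeR adjusted p = 0.0839 and 0.0578). In mon it was called without clutch 9 of 30 hpf (edgeR adjusted p = 0.03), and in wild-type/het without clutch 9 of 30 hpf in either genotype (0.0436 without the mon library and 0.0409 without the wild-type/het one) or without mon of clutch 4 (0.012). With all of clutch 9 left out it was called in both genotypes (0.0475 in mon and 0.0246 in wild-type/het). In wild-type/het it was also called with DESeq2 size factors (edgeR adjusted p = 0.0479) and in the 6 libraries compared (0.019). MT-ND3 was called at 0.55 ± 0.14 in mon and at 0.39 ± 0.14 in wild-type/het (edgeR adjusted p = 0.00544 and 0.038). In wild-type/het that call was lost without any 1 of 6 libraries. The edgeR adjusted p was 0.0526 and 0.0544 without mon of clutches 11 and 13 of 22 hpf, 0.0604 and 0.149 without wild-type/het of the same clutches, and 0.0831 and 0.174 without wild-type/het of clutches 3 and 4 of 30 hpf, where the log2 value without clutch 4 was 0.26. Under the clutch block the log2 value was 0.09 (edgeR adjusted p = 0.515). Of the ATP synthase genes, MT-ATP6 rose by 0.37 ± 0.07 in mon and 0.52 ± 0.07 in wild-type/het, and mt-atp8 by 0.28 ± 0.08 and 0.53 ± 0.08 on the log2 scale. The call of mt-atp8 in mon was lost without mon of clutch 4 of 30 hpf (edgeR adjusted p = 0.0648), and under the clutch block (0.0533).

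**Figure D4:**
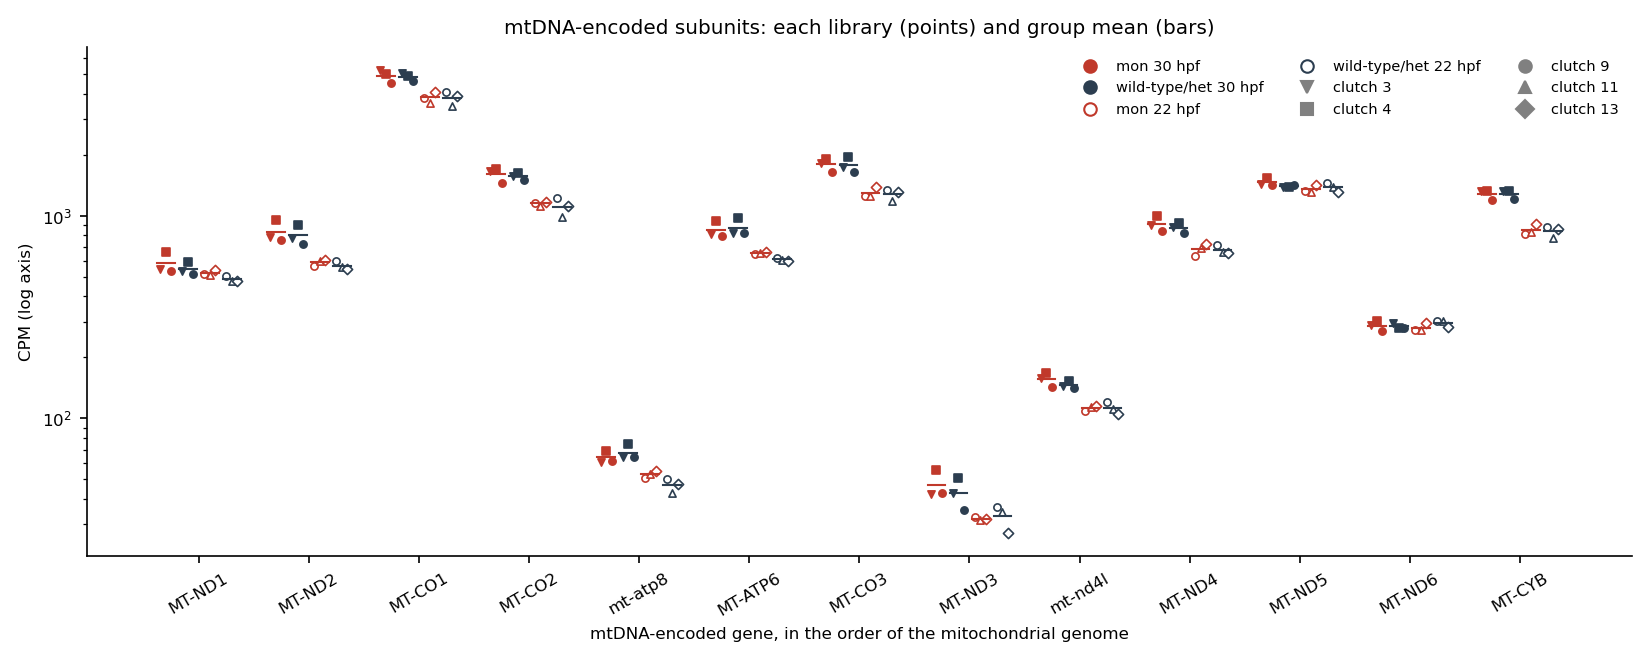
Level of each mtDNA-encoded subunit in CPM (log axis) in every library (points) with group means (bars), ordered along the mitochondrial genome; filled symbols are 30 hpf, open symbols 22 hpf, red mon and dark blue wild-type/het. MT-CYB shows a wide gap between the stages (1202 to 1324 CPM at 30 hpf, 775 to 908 CPM at 22 hpf). MT-ND6 shows overlapping points, and MT-ND5 does so in wild-type/het, while in mon its stages lie narrowly apart.

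Zebrafish carry several copies of some subunits, and for some of these the log2 fold changes of the copies with stage lay far apart. A wide gap was seen in COX6B, which joins the monomers of complex IV. The copy cox6b1 (ENSDARG00000045230) stood at 6.05, 9.14 and 5.89 CPM in mon and at 9.16, 5.56 and 5.49 CPM in wild-type/het at 30 hpf, against 1.11, 1.18 and 1.23 CPM in mon and 1.63, 0.994 and 0.615 CPM in wild-type/het at 22 hpf. The stages did not overlap, and the log2 fold change was 2.58 ± 0.31 in mon and 2.64 ± 0.32 in wild-type/het (edgeR adjusted p = 3.32e-06 and 2.8e-06). The other copy, cox6b2 (ENSDARG00000037860), stood at 160, 145 and 137 CPM in mon and at 143, 145 and 145 CPM in wild-type/het at 30 hpf, against 145, 138 and 146 CPM in mon and 150, 140 and 142 CPM in wild-type/het at 22 hpf. Its stages overlapped (log2 0.04 ± 0.06 in mon and 0.00 ± 0.06 in wild-type/het). Of the reads of both copies, cox6b1 took 4.57 ± 1.21% in mon and 4.45 ± 1.35% in wild-type/het at 30 hpf, and 0.815 ± 0.0470% in mon and 0.737 ± 0.323% in wild-type/het at 22 hpf (SD, n = 3 each).

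The NDUFA4 family showed a like contrast. The copy ndufa4b stood at 7.83, 10.1 and 9.26 CPM in mon and at 9.78, 8.67 and 12.5 CPM in wild-type/het at 30 hpf, above its levels at 22 hpf given before (log2 2.79 ± 0.29 in mon and 2.11 ± 0.27 in wild-type/het, edgeR adjusted p = 1.06e-06 and 9.97e-06). The copy NDUFA4 (ENSDARG00000099499) stood at 74.7, 71.9 and 76.8 CPM in mon and at 77.5, 78.7 and 77.7 CPM in wild-type/het at 30 hpf, and at 72.3, 73.4 and 78.2 CPM in mon and 70.9, 73.4 and 69.9 CPM in wild-type/het at 22 hpf. Its log2 fold change was -0.00 ± 0.06 in mon and 0.13 ± 0.06 in wild-type/het, neither called (edgeR adjusted p = 0.968 and 0.0959); the stages overlapped in mon and not in wild-type/het. Of the reads of the family, ndufa4b took 10.3 ± 1.29% in mon and 11.2 ± 1.94% in wild-type/het at 30 hpf, against 1.66 ± 0.802% in mon and 3.08 ± 1.07% in wild-type/het at 22 hpf (SD, n = 3 each).

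Another complex IV copy, cox4i1l (ENSDARG00000012388), was scarce. It stood at 0.591, 0.591 and 0.532 CPM in mon and at 1.11, 0.852 and 1.11 CPM in wild-type/het at 30 hpf, against 0, 0.181 and 0.376 CPM in mon and 0.102, 0.0497 and 0.308 CPM in wild-type/het at 22 hpf. Its log2 fold change with stage was 1.62 ± 0.71 in mon and 2.70 ± 0.70 in wild-type/het (edgeR adjusted p = 0.0753 and 0.00454), and the difference between the genotypes was not called. In mon it was called by limma-voom on all 12 libraries (log2 2.26, limma-voom adjusted p = 0.0253). It was also called without clutch 13 of 22 hpf (log2 2.54, edgeR adjusted p = 0.0267) and under the clutch block (log2 3.27, edgeR adjusted p = 0.0119). These values all lie above 1.62. The block's stage values rest on clutch 9, whose mon library of 22 hpf held 0 CPM of cox4i1l, so the size of 3.27 is uncertain. The main copy COX4I1, a regulatory subunit of complex IV, had log2 values of 0.18 ± 0.07 in mon and 0.16 ± 0.07 in wild-type/het (edgeR adjusted p = 0.0544 and 0.0952). The mon value passed without mon of clutch 11 of 22 hpf (log2 0.27, edgeR adjusted p = 0.00649) and the wild-type/het value without wild-type/het of that clutch (0.0484), and both passed under the clutch block (0.00118 in mon and 0.00519 in wild-type/het). The mon value also passed by limma-voom (limma-voom adjusted p = 0.047). Of the copies of the accessory subunit COX5A, cox5aa rose by 0.45 ± 0.06 in both genotypes (edgeR adjusted p = 1.71e-05 in each), and COX5A (ENSDARG00000099663) had values of 0.08 ± 0.07 in mon and 0.12 ± 0.07 in wild-type/het on the log2 scale, not called. In all, 5 of 22 nuclear genes of complex IV (22.7%) were called higher in mon, about the share of all genes (22.1%), and 9 (40.9%) in wild-type/het, against 22.4% of all genes.

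In the ATP synthase the copies of the c ring, the rotor that protons drive, also had values far apart. The copy atp5mc1 (ENSDARG00000056008) stood at 137, 143 and 147 CPM in mon and at 132, 153 and 142 CPM in wild-type/het at 30 hpf, against 88.0, 84.0 and 83.2 CPM in mon and 83.8, 79.1 and 82.3 CPM in wild-type/het at 22 hpf. It rose by 0.75 ± 0.06 in mon and 0.80 ± 0.06 in wild-type/het on the log2 scale (edgeR adjusted p = 3.99e-08 and 1.53e-08). The copy atp5mc3b rose by 0.47 ± 0.05 in mon and 0.43 ± 0.05 in wild-type/het. ATP5MC3 (ENSDARG00000017775) stood at 47.7, 46.3 and 52.6 CPM in mon and at 45.6, 42.8 and 52.6 CPM in wild-type/het at 30 hpf, and at 54.3, 53.1 and 46.5 CPM in mon and 47.9, 48.6 and 46.8 CPM in wild-type/het at 22 hpf. Its stages overlapped (log2 -0.07 ± 0.09 in mon and -0.02 ± 0.09 in wild-type/het, edgeR adjusted p = 0.554 and 0.849). Of the reads of the 3 copies, atp5mc1 took 31.3 ± 0.718% in mon and 31.6 ± 1.03% in wild-type/het at 30 hpf, and 25.9 ± 0.225% in mon and 25.3 ± 0.255% in wild-type/het at 22 hpf (SD, n = 3 each). Of the 2 copies of the small subunit ATP5ME, atp5meb rose by 0.53 ± 0.10 in mon and 0.52 ± 0.10 in wild-type/het on the log2 scale (edgeR adjusted p = 0.000358 and 0.000439). The other copy, atp5mea, had log2 values of 0.36 ± 0.13 in mon and 0.26 ± 0.13 in wild-type/het (edgeR adjusted p = 0.0343 and 0.119). The mon call of atp5mea was lost without any 1 of the 6 mon libraries (edgeR adjusted p = 0.0553, 0.0672 and 0.0841 without clutches 9, 11 and 13 of 22 hpf, and 0.069, 0.0504 and 0.101 without clutches 3, 4 and 9 of 30 hpf). In wild-type/het it was called without clutch 13 of 22 hpf (0.0497). Reads shared between near-identical copies may be split or lost in the counting, so single copies are less certain than their sums.

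**Figure D5:**
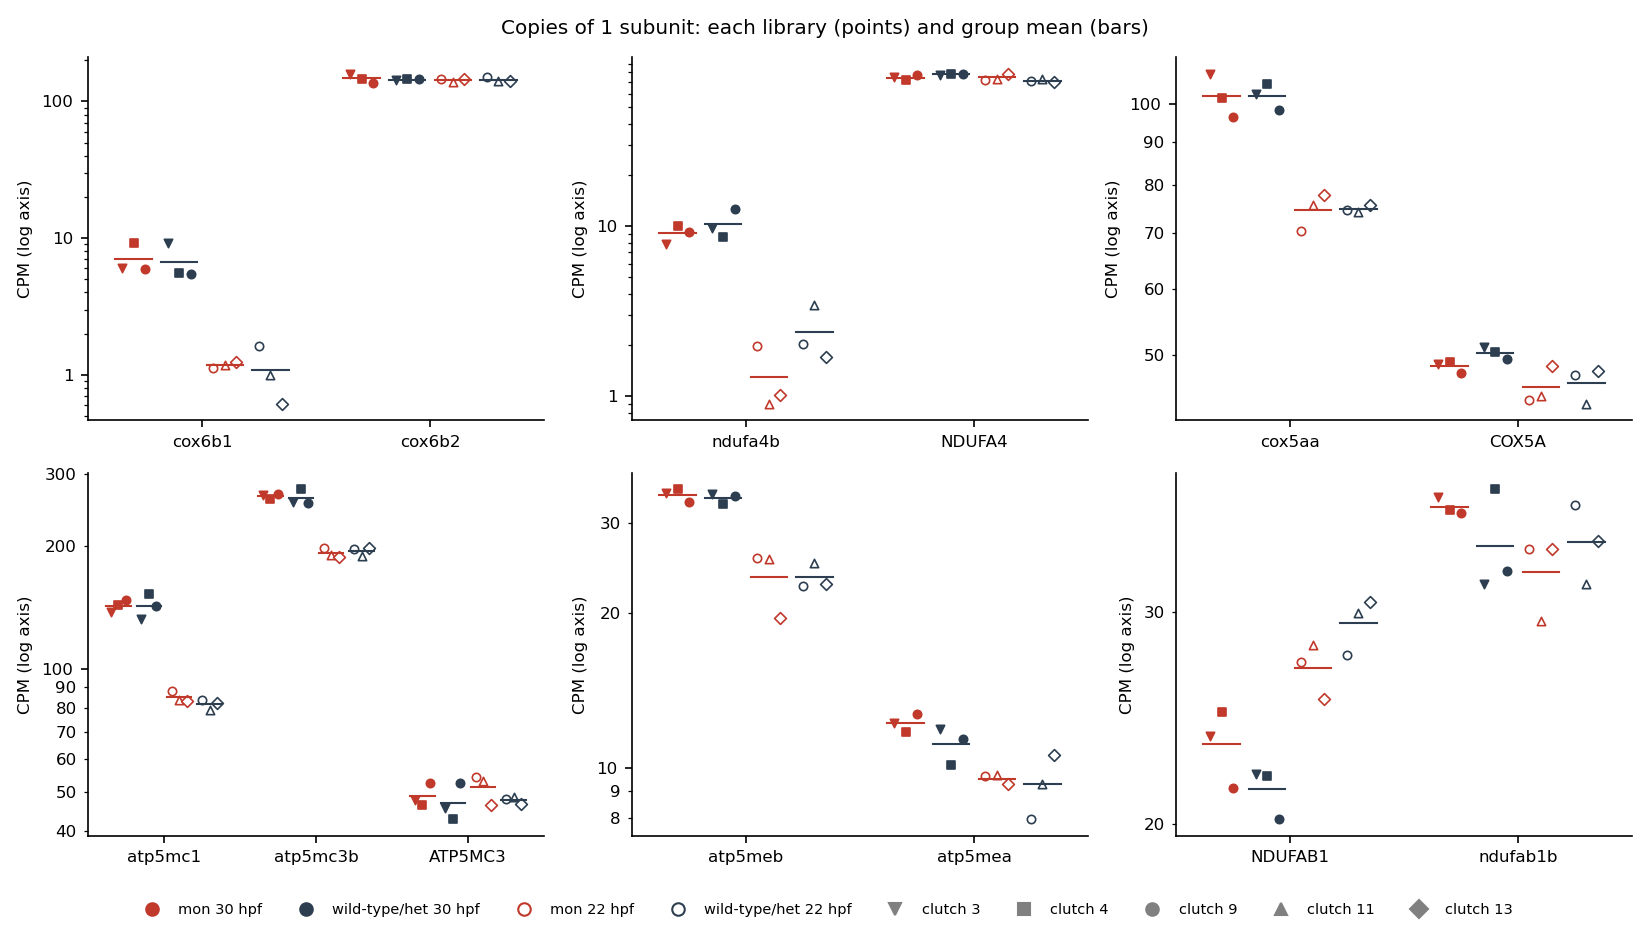
Levels in CPM (log axes) of the copies of 6 subunits in every library (points) with group means (bars), by group from left to right: mon 30 hpf, wild-type/het 30 hpf, mon 22 hpf, wild-type/het 22 hpf. The stages lie apart for cox6b1, ndufa4b, cox5aa, atp5mc1, atp5mc3b and atp5meb, and overlap for cox6b2 and ATP5MC3.

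A single subunit gene was called lower at 30 hpf, and in wild-type/het embryos. NDUFAB1 (ENSDARG00000058463) encodes the acyl carrier protein, which serves mitochondrial fatty acid synthesis as well as complex I. It stood at 23.7, 24.8 and 21.4 CPM in mon and at 22.0, 21.9 and 20.2 CPM in wild-type/het at 30 hpf, against 27.2, 28.2 and 25.4 CPM in mon and 27.6, 29.9 and 30.6 CPM in wild-type/het at 22 hpf. The stages did not overlap in either genotype. On the log2 scale it fell by 0.46 ± 0.09 in wild-type/het (edgeR adjusted p = 0.000606), and in mon its value was -0.21 ± 0.09 (edgeR adjusted p = 0.0774, or 0.0191 on library totals). The difference between the genotypes was 0.25 ± 0.13 and was not called (edgeR adjusted p = 1.0). Its other copy, ndufab1b, had log2 values of 0.18 ± 0.09 in mon and -0.01 ± 0.09 in wild-type/het, not called.

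Genes that assemble the complexes or run the mitochondrial genome were set beside the subunits. Neither at 22 nor at 30 hpf did edgeR call any gene between mon and wild-type/het in 7 lists: assembly factors of complex I (16 tested), of complexes II and III (10, the 4 SDHAF genes among them), of complex IV (20) and of complex V with its inhibitors (6), genes of mtDNA replication, transcription and RNA processing (29), nuclear regulators of mitochondrial genes (11), and carriers and uncoupling proteins (10). Over all genes tested edgeR called 0.445% at 22 hpf and 0.79% at 30 hpf, so 0 calls in lists of this size lie near that share. At an unadjusted p under 0.05 edgeR had at most 1 gene of a list at 22 hpf, against 4.29% of all genes. At 30 hpf it had 4 of the complex IV factors, 2 of the mtDNA genes and 1 each in the lists of complex I, regulators and carriers, against 5.56% of all genes. The complex IV factors thus had 20.0% and the mtDNA genes 6.9%. The smallest p was that of pprc1, a coactivator of the PGC-1 family that acts with NRF1, at 39.9 CPM in mon and 30.1 CPM in wild-type/het on average at 30 hpf (log2 0.40 ± 0.10, edgeR adjusted p = 0.0676). COX10, which makes the heme of complex IV, had a log2 value of 0.28 ± 0.08 at 30 hpf (edgeR adjusted p = 0.249).

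With stage, lower calls outnumbered higher ones among the genes that run the mitochondrial genome. Of the 29 genes of mtDNA maintenance and expression, 16 were called lower at 30 hpf in mon (55.2%) and 15 in wild-type/het (51.7%), with 1 higher in each, against 20.2% and 20.7% of all genes called lower, and the median log2 fold change was -0.43 in mon and -0.53 in wild-type/het. POLRMT, the mitochondrial RNA polymerase, averaged 30.3 CPM in mon and 28.0 CPM in wild-type/het at 30 hpf, against 41.5 CPM in mon and 37.9 CPM in wild-type/het at 22 hpf. It fell by 0.45 ± 0.08 in mon and by 0.44 ± 0.08 in wild-type/het on the log2 scale (edgeR adjusted p = 0.000182 and 0.000256). Of the 11 regulators 5 were called lower (45.5%) and 3 higher (27.3%) in mon, and 6 lower (54.5%) and 3 higher (27.3%) in wild-type/het. Over all genes 22.1% were called higher in mon and 22.4% in wild-type/het. Of these regulators, pprc1 fell by 1.60 ± 0.09 in mon and by 1.97 ± 0.10 in wild-type/het on the log2 scale. Of the assembly factors, in mon 1 higher and 2 lower of 16 for complex I and 3 higher and 2 lower of 20 for complex IV were called, and in wild-type/het 2 lower of 16 and 3 higher with 2 lower of 20. These shares for complexes I and IV, at most 15.0% higher and 12.5% lower, are below those of all genes in either direction. In the list of complexes II and III 1 of 10 was called higher in mon and 1 lower in each genotype. In the list of complex V 1 of 6 (16.7%) was called higher in each genotype and 1 lower in mon. Of the 10 carriers 5 were called higher in each genotype (50.0%), against 22.1% of all genes in mon and 22.4% in wild-type/het. The adenine nucleotide carrier gene SLC25A4, which is abundant in muscle and heart, averaged 67.2 CPM in mon and 71.4 CPM in wild-type/het at 30 hpf, against 0.611 CPM in mon and 0.354 CPM in wild-type/het at 22 hpf.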

How the data were processed

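Total RNA of pooled whole embryos was sequenced after rRNA depletion as directional libraries, per the labels. The authors deposited a table of raw read counts per gene, for 32520 Ensembl IDs in 12 libraries. The submitters' processing notes name HTSeq, TopHat2 2.0.11, Cufflinks 2.2.1, cutadapt and FastQC, and the build GRCz11. Neither the annotation release nor the strand setting of the counting is given in the sources used here. The table held 0 columns of no sample.

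Symbols were matched to 29201 IDs (89.8%). Symbols in capitals, 79 among the members, come from an orthologue, and copies may share one. The RefSeq table (GRCz12tu), another build, gave only names and gene order. No sequences are shown.

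All 12 libraries entered 1 edgeR 4.0.16 fit (R 4.3.3) with 4 groups: TMM scaling (0.967 to 1.042), filterByExpr, glmQLFit with robust estimation and glmQLFTest, with 8 residual degrees of freedom. The SE is the size of the log2 fold change divided by the root of its F value. Replicates were checked for repeats (chi-square 6.51 to 10.1 per gene). Libraries pair by clutch: deviations from group means correlated at 0.509 to 0.69 in the 6 same-clutch pairs and at most -0.193 between clutches. Within a group the pools came from separate clutches, so p-values of the main fit measure spread between clutches and leave the pairing unused. Under the clutch block they measure the spread left after differences between clutches are removed. Members, lists and named genes (those called or of smallest p between genotypes, all mtDNA genes, the largest called stage changes, copies, the most abundant per complex) were chosen with earlier results of these data known. Alternatives used DESeq2 1.42.0 size factors or test, limma-voom (limma 3.58.1), library totals, scaling without mtDNA genes, no filter, the 6 libraries compared, the clutch block, and leaving out clutch 9 or each library.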

Additional observations from a re-analysis of the deposited data

How the results depend on the processing

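Between mon and wild-type/het, 0 members were called at 22 hpf, at 30 hpf and for the difference between the stages under each alternative run, leaving out any 1 of the 12 libraries included (0 to 0), except that the clutch block called 1 at 22 hpf (MT-ATP6) and 1 at 30 hpf (ATP5PB). For 30 against 22 hpf, members called higher numbered 46 in mon and 43 in wild-type/het on library totals, and 50 in mon and 47 in wild-type/het under the replicate block. Over all 21778 genes tested, 4804 in mon and 4873 in wild-type/het were called higher in the main fit. These numbered 4267 and 4281 on library totals, and 4728 and 4821 under the block. All genes called lower numbered 5420 in mon and 5783 in wild-type/het on library totals, from 4398 and 4518 in the main fit. Leaving out 1 library gave 48 to 56 in mon and 46 to 56 in wild-type/het. Members called lower in mon numbered 0 without clutch 9, 2 on library totals and 0 to 1 with 1 library left out. In wild-type/het they numbered 1 without clutch 9, 3 on library totals and 1 to 2 with 1 library left out. The block also raised the members at an unadjusted p under 0.05 to 9, 5 and 4, from 3, 0 and 1, at 22 hpf, at 30 hpf and for the difference, and the genes called for the difference to 105, from 19. It moved no stage count of called members by more than 1.5 times. The log2 ratio of the summed nuclear subunits, 30 over 22 hpf, was 0.33 in mon and 0.32 in wild-type/het on TMM-scaled CPM, 0.26 and 0.23 as a share of all gene counts, and 0.26 and 0.23 as a share of the counts of nuclear genes. For mtDNA in wild-type/het it was 0.37, 0.28 and 0.28. Library totals moved the median of all genes with stage to -0.09 in mon and -0.10 in wild-type/het. Of 260 pairs of a named member and a comparison, 31 changed call under at least 1 alternative, and a called value turned its sign in 0. The causes of these changes were not tested. Stage and clutch overlap in clutch 9 alone, so the block's stage values rest on that clutch. Copies with few counts have wide intervals between genotypes, several of which reach past 1.5-fold, so larger differences in them are not excluded.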
